A study of Arabidopsis thaliana with 12 samples.

Results

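The comparison described here sets *RVE8:GR* + DEX seedlings against *rve8* + mock seedlings, the 2 ends of a design with 4 groups. Its members are the 3 libraries of each of these groups, 6 of the 12 libraries of the series, assigned to their groups by the labels. *rve8* stands for the *rve8-1* mutant, which lacks RVE8 function. *RVE8:GR* stands for *rve8-1 RVE8::RVE8:GR*, the same mutant carrying a fusion of RVE8 with the glucocorticoid receptor (GR) under the native *RVE8* promoter. All groups thus share the *rve8-1* mutation. The fusion was studied in 1 transgenic line, made in *rve8-1* plants with the *CCR2::LUC* reporter. The whole seedlings were 7 days old and had grown in 12 hr light and 12 hr dark on medium with 3% sucrose. They were moved at ZT4 (4 hr after lights on) to liquid with dexamethasone (DEX) or with solvent alone (mock) and were frozen 4 hr later, at ZT8. The labels give 30 mM DEX, and the methods of the study give 30 µM. Each library came from about 30 plants grown as a separate biological replicate. The remaining 6 libraries, 3 of *rve8* + DEX and 3 of *RVE8:GR* + mock, lie between the ends, since each differs from *rve8* + mock in only line or only treatment. They are used to ask which genes go up or down in steps.

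The circadian clock of *Arabidopsis* is a network of transcription factors that peak at different times of day. Morning factors such as CCA1 and LHY repress evening genes, and the pseudo-response regulators (PRRs) that follow them repress the morning genes in turn. RVE8 is a MYB-like factor related to CCA1 and LHY that binds the same promoter motif, the evening element (EE, AAAATATCT), but is known as an activator of evening-phased genes. A protein fused to GR is kept out of the nucleus until the steroid DEX binds it.

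*RVE8* (AT3G09600), chr3:2946239-2949017 on the forward strand of TAIR10.1, had 5.19, 5.51 and 6.30 CPM (counts per library total in CPM, scaled with TMM factors) in *RVE8:GR* + DEX and 2.06, 0.605 and 0.711 CPM in *rve8* + mock. The groups did not overlap, and the log2 fold change was 2.32 (standard error 0.302). With a library left out it was 2.02 to 3.08, and it was highest without *rve8* + mock 1, the library with the highest value of its group. *RVE8:GR* + mock had 8.34 to 9.75 CPM and *rve8* + DEX 0.600 to 1.33 CPM. The transcript was thus higher in both groups of the *RVE8:GR* line, as labelled. Within that line every DEX library (5.19 to 6.30 CPM) was below every mock library. The counts do not separate the transgene from the mutated gene. The libraries had 15975840 to 21713130 counts, and those of *rve8* + mock (15975840 to 16722107) were the shallowest. At this depth 3 counts are 0.138 to 0.188 CPM. TMM factors were 0.959 to 1.047, 7.01 to 9.62% of each library fell on its 10 most abundant genes, and all replicate pairs differed by more than sampling noise. The pair that differed most was *rve8* + mock 1 and 3.

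Of 19961 genes tested, 1079 (5.41%) were higher and 718 (3.6%) lower in *RVE8:GR* + DEX than in *rve8* + mock, with adjusted p-values below 0.01 by the quasi-likelihood test of edgeR (Benjamini-Hochberg), the threshold used throughout. Of these, 1078 and 714 did not overlap between the groups, against 32% of all genes tested. An increase of at least 2-fold was seen in 124 genes and such a decrease in 40. Without TMM factors the split was 822 higher and 1121 lower, and with upper-quartile factors 927 and 939, while the median log2 fold change of all genes went from -0.005 to -0.062 and -0.036. The rise and fall of single genes named below kept their direction under both. Without *rve8* + mock library 2 the counts were 605 and 343, and without *RVE8:GR* + DEX library 3 they were 679 and 404. Without *RVE8:GR* + DEX library 1 the lower genes numbered 440.

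To place these genes, the change from *rve8* + mock to *RVE8:GR* + DEX was split into 3 parts on the log2 scale. The line step is *RVE8:GR* + mock over *rve8* + mock, the DEX step is *rve8* + DEX over *rve8* + mock, and the departure is what remains, that is, how far the end groups lie above or below the sum of both steps. The steps share the *rve8* + mock libraries with the main comparison, so counts of genes by step are a description. On its own the line step was called higher for 261 genes (1.31%) and lower for 83 (0.416%), and the DEX step for 790 (3.96%) and 313 (1.57%). A gene called in the main comparison was named stepwise when both steps were called in its direction and the departure was not. A departure that was not called is not shown to be absent, so stepwise does not mean additive. Of the 1079 higher genes, 51 were stepwise, 10 had both steps together with a called departure, 112 had only the line step, 299 only the DEX step and 607 neither. Of the 718 lower genes, 17 were stepwise, 2 had both steps together with a called departure, 37 had only the line step, 156 only the DEX step and 506 neither.

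Both intermediate groups had means between the ends for 738 (68.4%) of the higher and 484 (67.4%) of the lower genes. Genes called for a gap between the ends favour such means, and the share over all genes was not computed. Among higher genes it was 76.5% for the stepwise ones and 80.1% where neither step was called. Among lower genes these shares were 82.4% and 74.5%. The direct test of *RVE8:GR* + mock against *rve8* + DEX, which shares no library with the main comparison, called 362 of all genes higher (1.81%) and 629 lower (3.15%). Among the 1079 higher genes it called 88 higher and 138 lower, and among the 718 lower genes 33 higher and 62 lower. The departure was called above additivity for 48 of all genes (0.24%) and below it for 189 (0.947%). Among the higher genes 28 departed upward and 13 downward, and among the lower genes 62 departed downward and 2 upward. Leaving out 1 library moved the intermediate counts to as low as 202 (*rve8* + DEX 2), 208 (*rve8* + DEX 3) and 227 (*RVE8:GR* + mock 2) higher, and 366 (*RVE8:GR* + mock 1), 410 (*RVE8:GR* + mock 2) and 418 (*rve8* + DEX 1) lower. It moved the upward departures to 29 (*RVE8:GR* + DEX 1) and 31 (*rve8* + DEX 1). The downward ones fell to 97, 115 and 124 without *RVE8:GR* + DEX 1, 2 and 3, to 115 without *RVE8:GR* + mock 2, to 116 and 109 without *rve8* + DEX 1 and 2, and to 98 without *rve8* + mock 2.

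The EE was searched in the 1500 bp before the start codon, on both strands. The stretches below are from the TAIR10.1 genome of RefSeq. They are shown because they lie in front of evening clock genes, stepwise genes and starch, cold and starvation genes that rose in this comparison. Long EEs also lie in promoters of named genes that fell, such as *COL2*, *PRR9* and *MYB29*, or did not pass, such as *ELF4* and *BOA*. Each stretch below is the long EE nearest to the start codon with its flanks. It is read in the direction of the motif, and capitals mark the long EE.
*PRR5*: gagaaaagAAAATATCTagaaaaaat
*FKF1*: aaacttttAAAATATCTtggcttagt
*GI*: ctcccctcAAAATATCTgtggacata
*TOC1*: acacaaaaAAAATATCTaatcacaga
*LUX*: gaagatctAAAATATCTagctaactc
AT5G23240: agttgttgAAAATATCTctatatgaa
*CCL*: agaaccaaAAAATATCTaaaatcact
*GWD1*: tcaaaacgAAAATATCTatcaaaaga
AT1G15125: tttaaaagAAAATATCTtcttgtagc
*PHS2*: ccttctgaAAAATATCTtacgcttct
*COR27*: agttgaagAAAATATCTttgatattt
*DRM2*: tattcgtaAAAATATCTcttttcctt

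The stretch of *PRR5* is chr5:8358717-8358742 on the forward strand, upstream of the transcript, and its EE ends 180 bp from the start codon. That of *FKF1* is chr1:25508630-25508655 on the reverse strand and that of *TOC1* chr5:24675492-24675517 on the reverse strand, both in exons of the 5′ UTR, 91 and 32 bp from the start codon. *GI* (chr1:8061152-8061177) and *LUX* (chr3:17182981-17183006) have theirs on the forward strand upstream of the transcript, 1230 and 251 bp away. The 5′ UTR exons of AT5G23240 (chr5:7828583-7828608, forward), *CCL* (chr3:9827802-9827827, forward), AT1G15125 (chr1:5204317-5204342, reverse), *PHS2* (chr3:17306328-17306353, reverse) and *DRM2* (chr2:14310388-14310413, forward) hold theirs at 58, 50, 292, 226 and 111 bp. The EE of *GWD1* (chr1:3590321-3590346, forward) lies in an intron of the 5′ UTR or at its edge, at 287 bp, and that of *COR27* (chr5:17199913-17199938, reverse) upstream of the transcript, at 210 bp.

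The short EE, AAATATCT, which the long EE contains, was present in 42.8% of the promoters of higher genes (457 of 1068, 95% Wilson interval 39.9 to 45.8%), in 16.5% of those of lower genes (117 of 709) and in 20.5% of all genes tested. The long EE was in 26.2%, 7.33% and 9.81%. Ranked by the size of the increase, the first 100 higher genes had the short EE in 59% of promoters and the next 200 in 53%. From rank 301 on, the share of each bin was between 33% (ranks 801 to 900) and 44% (ranks 401 to 500), with no steady fall. Among higher genes the share was 63.1% (53.8 to 71.5%) where only the line step was called, 56.9% (43.3 to 69.5%) for the stepwise genes, 43.8% (39.8 to 47.8%) where neither step was called and 31.9% (26.8 to 37.4%) where only the DEX step was called. It was lowest, 1 of 10 promoters (10.0%, 1.79 to 40.4%), where both steps and a departure were called. Of the 27 higher genes with a promoter and an upward departure, 24 had the short EE. Among higher genes in which *RVE8:GR* + mock was above *rve8* + DEX it was in 58 of 86 promoters, and in 40 of 137 where it was below. Among lower genes no step group exceeded 24.3% apart from the group of 2. The intervals cover counting error only, and a match is a description of the sequence and not of binding.

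**Figure D1:**
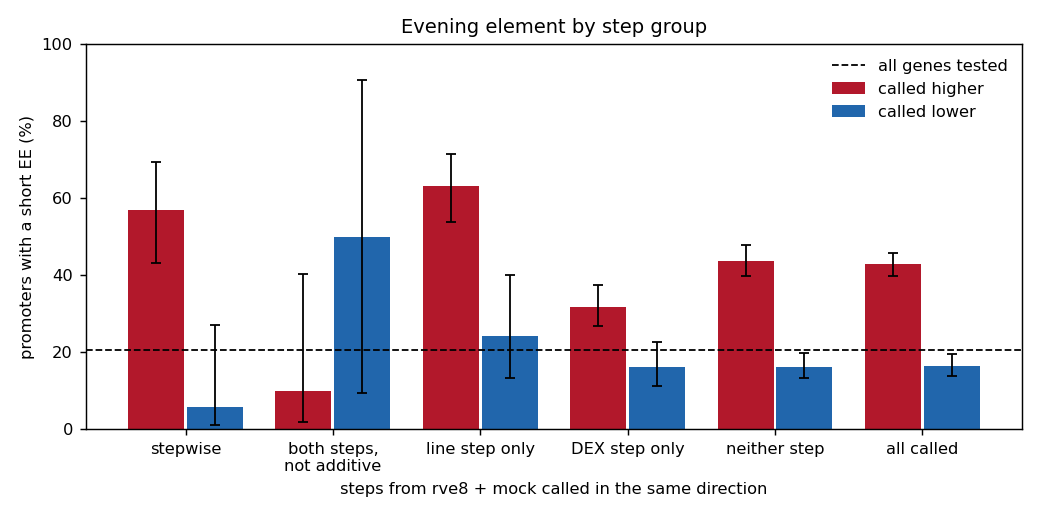
Percent of promoters (1500 bp before the start codon) that hold the short EE, for genes called higher (red) or lower (blue) in *RVE8:GR* + DEX than in *rve8* + mock, by which steps were called in the same direction. Bars are shares, whiskers 95% Wilson intervals, and the dashed line is the 20.5% of all genes tested. Red bars run from 10.0% (both steps with a departure, 1 of 10 promoters) to 63.1% (line step only), and the blue bar of both steps with a departure stands for 2 promoters.

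Most genes of the evening-phased clock list were higher in *RVE8:GR* + DEX. This list also takes in *ZTL* and *LKP2*, relatives of *FKF1*, and the phase of its members was not checked in these data. Of 12 listed genes, 8 rose, against 5.41% of all genes tested, and the median log2 fold change was 0.71, against -0.005 for all genes. *FKF1*, an F-box blue-light receptor that removes repressors of flowering, had 20.1, 23.9 and 21.4 CPM in *RVE8:GR* + DEX and 4.82, 4.54 and 5.04 CPM in *rve8* + mock. No libraries of these groups overlapped, and the log2 fold change was 2.18 (standard error 0.132, adjusted p-value 1.65e-10 by the quasi-likelihood test of edgeR (Benjamini-Hochberg)). It was made of a line step of 1.24, a DEX step of 0.54 that was not called and a departure of 0.40 that was not called. *PRR5*, a repressor of morning genes, had 108, 99.8 and 100.8 CPM against 29.3, 31.5 and 30.0 CPM, again without overlap. Its log2 fold change of 1.77 (standard error 0.0925) was larger than the sum of its line step (0.60) and DEX step (0.20) by 0.97 (standard error 0.130, adjusted p-value 0.000273 in the same edgeR test). *PRR5* was the only called gene of the evening list with a called departure.

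*GI*, which works with FKF1 and its relative ZTL, had 182, 176 and 178 CPM in *RVE8:GR* + DEX and 113, 111 and 104 CPM in *rve8* + mock, with log2 fold change 0.71 (standard error 0.0600). *TOC1*, the evening pseudo-response regulator, had 112, 119.7 and 110.4 CPM against 65.0, 66.1 and 68.3 CPM, a log2 fold change of 0.78 (standard error 0.0689). For *GI* all 6 intermediate libraries lay between the ends, and for *TOC1* *RVE8:GR* + mock (67.9 to 76.3 CPM) overlapped *rve8* + mock. *LUX*, the DNA-binding member of the evening complex, rose by 0.80, and *PRR3*, which protects TOC1, by 0.98 on the log2 scale. *ELF3*, the scaffold of the evening complex, and *LKP2*, a relative of *FKF1*, rose least, by 0.32 and 0.43. The call for *ELF3* was lost without *RVE8:GR* + DEX 3 or *rve8* + mock 2, and that for *LKP2* without *RVE8:GR* + DEX 1 or 3 or *rve8* + mock 2 or 3.

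The other 4 genes of the list did not pass. *ELF4*, the remaining member of the evening complex, had 31.4, 37.9 and 34.8 CPM in *RVE8:GR* + DEX and 33.1, 24.6 and 25.7 CPM in *rve8* + mock, and the groups overlapped. Its log2 fold change was 0.32 (adjusted p-value 0.0314 by the quasi-likelihood test of edgeR), with a called departure of 0.68. *RVE8:GR* + mock (23.7 CPM on average) and *rve8* + DEX (25.3) were both below *rve8* + mock (27.8), but neither step was called. *ELF4* was called in 1 of 12 fits that left out a library, the fit without *rve8* + mock 1, the highest library of its group. The log2 fold changes were 0.70 for *BOA*, the paralogue of *LUX*, at 2.64 and 1.62 CPM on average, 0.21 for *CHE* and 0.10 for *ZTL*. No gene of the evening list was stepwise. The line step alone was called for *PRR5*, *FKF1* and *GI*, and neither step for the other 5 that rose.

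**Figure D2:**
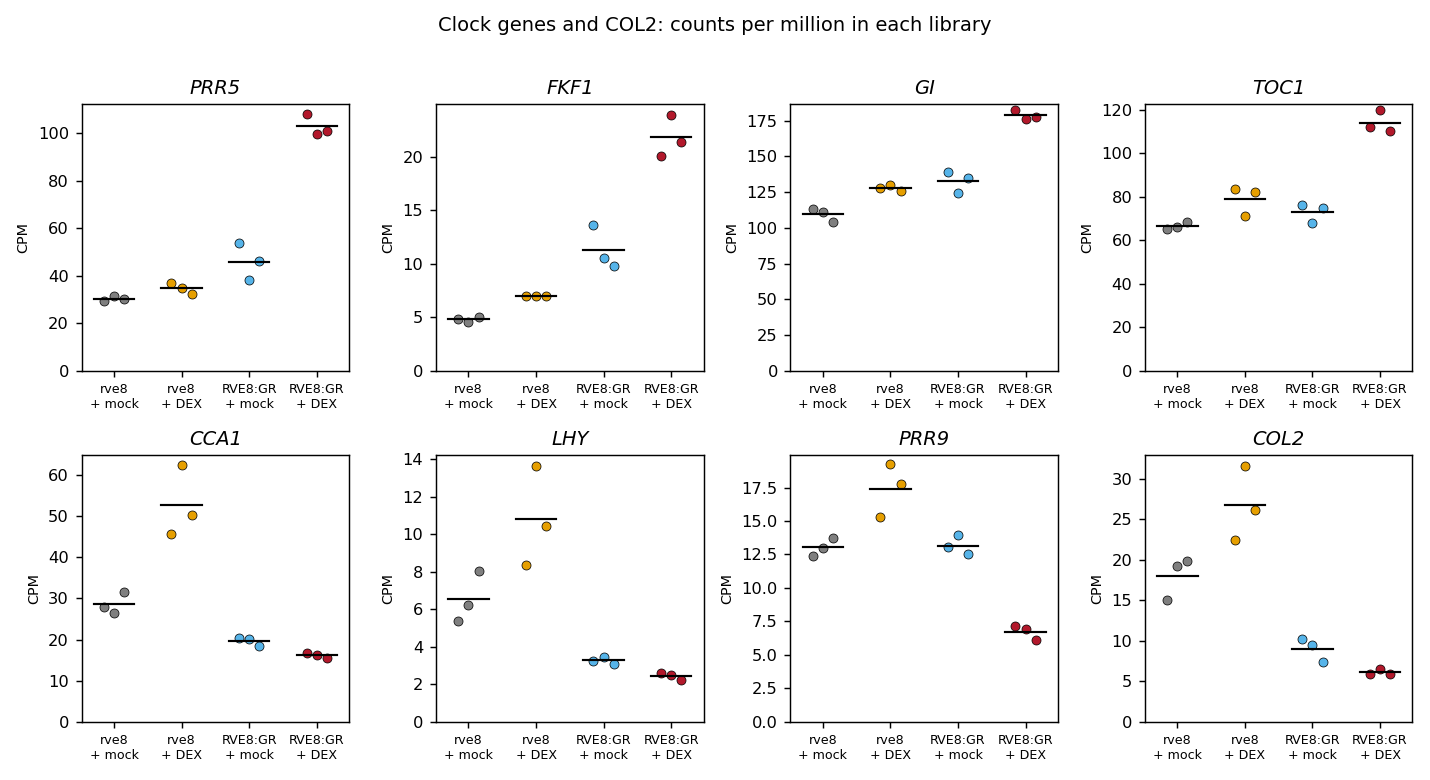
CPM (y axes, from 0) in each of the 12 libraries, by group (x axes), for 4 evening-phased genes (top) and 3 morning- or day-phased genes and *COL2* (bottom). Points are libraries and lines are means of 3. *RVE8:GR* + DEX was the highest group for the genes on top and the lowest below. The genes below were all highest in *rve8* + DEX, with means of 52.8 CPM for *CCA1* and 10.8 CPM for *LHY*.

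Morning- and day-phased clock genes mostly went the other way. Of 13 listed, 7 fell, against 3.6% of all genes tested, 2 rose and 4 did not pass, and the median log2 fold change was -0.40. *LHY*, a morning MYB factor, had 2.62, 2.50 and 2.23 CPM in *RVE8:GR* + DEX and 5.35, 6.23 and 8.06 CPM in *rve8* + mock, with log2 fold change -1.41 (standard error 0.201, adjusted p-value 3.95e-05 by the quasi-likelihood test of edgeR). Its partner *CCA1* had 16.7, 16.1 and 15.6 CPM against 27.9, 26.4 and 31.6 CPM, a log2 fold change of -0.83 (standard error 0.106). Neither gene overlapped between the groups. In these genes the steps ran in opposite directions, with a line step of -1.0 and a DEX step of 0.72 for *LHY* and of -0.54 and 0.88 for *CCA1*, all called. The intermediate groups therefore differed more than the end groups, with *RVE8:GR* + mock below *rve8* + DEX by 1.72 and 1.42 on the log2 scale.

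The *LNK* genes encode coactivators that bind RVE8-type factors. *LNK3* fell by 1.0, *LNK4* by 0.76 and *LNK2* by 0.49 on the log2 scale, and *LNK1* had -0.18 without passing. *LNK3* had 8.04, 7.46 and 6.36 CPM against 16.6, 13.8 and 13.6 CPM, with no overlap. *PRR9*, a day-phased repressor, fell by 0.95, but 33.7% of the 50-base stretches of its cDNA are shared with AT2G46670, which makes its value uncertain. *RVE4*, a close relative of *RVE8*, fell by 0.40, a call lost without *RVE8:GR* + DEX 1. The genes that rose were *PRR7*, by 0.56, and *RVE7*, by 0.45, which shares 51.9% of its stretches with another cDNA and lost its call without *RVE8:GR* + DEX 1 or 3. *PRR7* had 263, 257 and 248 CPM against 171, 163 and 187 CPM, with a DEX step of 0.39 and a departure of -0.004. *RVE1* (-0.38), *RVE2* (-0.37) and AT5G52660 (-0.19) did not pass.

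Of 13 morning and day genes, 9 were lower in *RVE8:GR* + mock relative to *rve8* + DEX, against 3.15% of all genes tested. The departure was called downward for 5 of the 13, namely *PRR9* (-1.38), *CCA1* (-1.17), *LNK3* (-1.16), *LNK2* (-0.56) and *LNK1* (-0.55), against 0.947% of all genes. For *LHY* it was -1.13, with an adjusted p-value of 0.026 by the quasi-likelihood test of edgeR.

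Among photoperiodic flowering genes, 3 of 12 fell, against 3.6% of all genes tested. *SOC1*, a promoter of flowering, rose by 0.57 on the log2 scale, 1 of 12 against 5.41%. *COL2*, a *CONSTANS*-like gene, was among the largest decreases of all, with 5.84, 6.53 and 5.96 CPM in *RVE8:GR* + DEX and 15.0, 19.2 and 19.8 CPM in *rve8* + mock. These groups did not overlap, and the log2 fold change was -1.56 (standard error 0.149, adjusted p-value 4.29e-07 by the quasi-likelihood test of edgeR). Its pattern over the 4 groups was that of *CCA1* and *LHY*, with a line step of -0.99, a DEX step of 0.57, both called, and a departure of -1.13. *COL1* fell by 0.72, and *CDF1*, a repressor of *CONSTANS*, by 0.59, a call lost without *RVE8:GR* + DEX 3 or *rve8* + mock 2. *CO* itself was at 1.61 and 1.59 CPM, with a log2 fold change of 0.03. 

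Cold-regulated genes were higher in *RVE8:GR* + DEX, with 8 of 12 called, against 5.41% of all genes tested, and a median of 0.59. *COR27*, a cold-responsive gene with 4 short EE sites in its promoter, had 13.1, 12.5 and 12.2 CPM against 2.70, 3.21 and 2.67 CPM, a log2 fold change of 2.14 (standard error 0.184, adjusted p-value 4.94e-08 by the quasi-likelihood test of edgeR). The groups did not overlap, and the departure was 1.45, while the means of the intermediate groups were near *rve8* + mock (3.84 and 3.39 CPM). AT4G33980, also with 4 such sites, behaved likewise, with 8.93, 8.71 and 8.36 CPM against 4.00, 3.09 and 2.96 CPM, a log2 fold change of 1.37 and a departure of 1.4. The line step alone was called for 5 of the 8. Among them, *COR15B* rose by 1.38 with a line step of 1.32, and *COR15A* by 1.17 with a line step of 1.79. *COR15A* had 37.4, 31.7 and 22.9 CPM in *RVE8:GR* + mock and 19.1, 22.4 and 18.6 CPM in *RVE8:GR* + DEX, all above the 7.76 to 9.99 CPM of *rve8* + mock. *COR47*, a dehydrin gene, rose by 0.46 with neither step called, and *ERD10* (0.12), *KIN1*, *KIN2* and *ZAT12* (0.26) did not pass. Of the 12, 6 were higher in *RVE8:GR* + mock relative to *rve8* + DEX, against 1.81% of all genes.

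The 51 stepwise increases had a median log2 fold change of 0.69. Their intermediate groups stood at a median of 70.3% (*RVE8:GR* + mock) and 71.9% (*rve8* + DEX) of the way from *rve8* + mock to *RVE8:GR* + DEX. The median departure was -0.26, and 0.09 for the higher genes with neither step called. Picking genes for called steps over the same *rve8* + mock libraries itself favours a negative departure. These medians therefore do not measure additivity. The largest was AT5G23240, annotated as a DnaJ protein, with 47.5, 38.7 and 41.1 CPM in *RVE8:GR* + DEX and 3.35, 3.27 and 3.496 CPM in *rve8* + mock. *rve8* + DEX had 12.8, 10.1 and 10.6 and *RVE8:GR* + mock 8.18, 6.37 and 8.11 CPM, so no libraries of different groups overlapped. The log2 fold change of 3.65 (standard error 0.133, adjusted p-value 5.99e-14 by the quasi-likelihood test of edgeR) was made of a line step of 1.16, a DEX step of 1.73 and a departure of 0.76, whose adjusted p-value in the same edgeR test was 0.0296. This was the largest log2 fold change among called genes with a mean of at least 5 CPM over the 6 libraries.

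The stepwise gene closest to the sum of its steps among those named was *GWD1*, which encodes the glucan water dikinase that starts starch breakdown. *RVE8:GR* + DEX had 401, 397 and 385 CPM, *RVE8:GR* + mock 322, 286 and 269 CPM, *rve8* + DEX 203, 181 and 179.6 CPM and *rve8* + mock 146, 136 and 136 CPM. The 4 groups were fully separated. Its line step was 1.07, its DEX step 0.43 and its departure 0.01 (standard error 0.0974), which add to 1.5 (standard error 0.0702). AT1G21670 had steps of 0.68 and 0.65 and a departure of 0.05. *CCL*, a *CCR*-like gene, rose by 1.74 with steps of 0.73 and 0.57, AT1G15125 by 1.59 with 0.43 and 0.94, and AT3G10020 by 1.41 with 0.43 and 0.82 (line step first in each case).

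**Figure D3:**
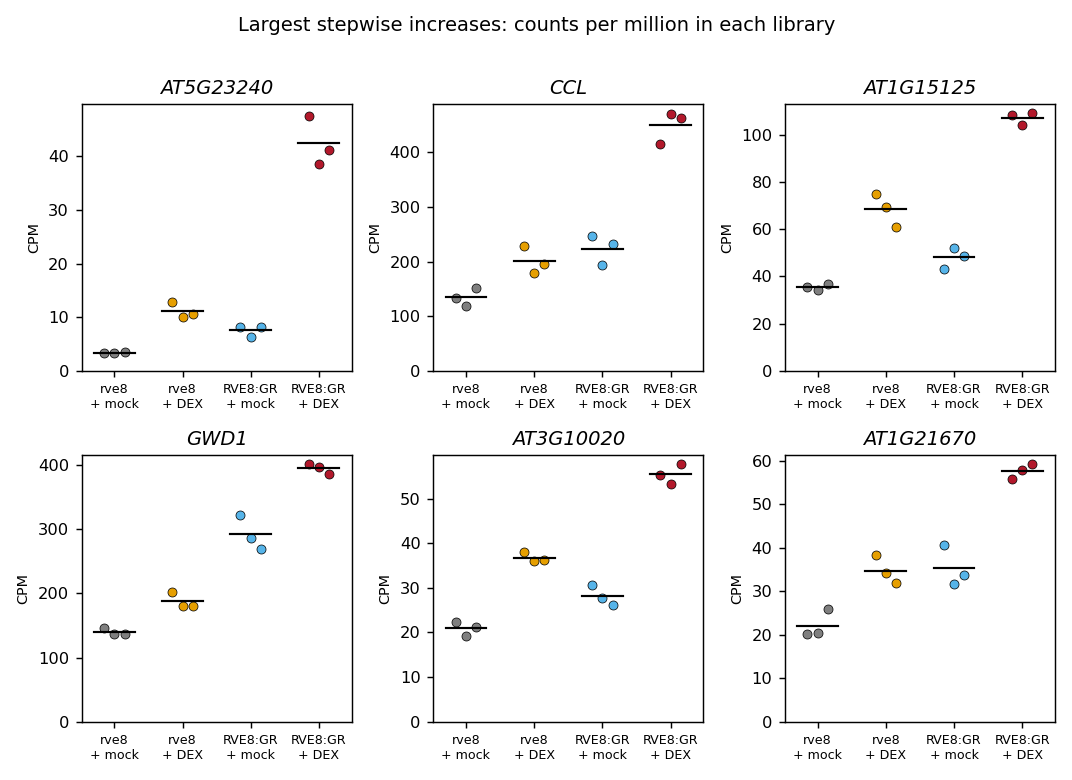
CPM (y axes, from 0) in each of the 12 libraries, by group (x axes), for the 6 largest stepwise increases with at least 5 CPM. Points are libraries and lines are means of 3. In each gene both intermediate groups stand above *rve8* + mock and below *RVE8:GR* + DEX, with *RVE8:GR* + mock the higher of them for *GWD1* (292 against 188 CPM) and *rve8* + DEX for AT5G23240 (11.2 against 7.55 CPM).

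Which genes counted as stepwise depended on the libraries. Without *rve8* + mock library 2 there were 15 increases and 3 decreases, without library 1 of that group 27 and 5, and without library 3 of that group 113 and 113. The 17 decreases also went to 7 without *RVE8:GR* + DEX 1, to 6 and 9 without *RVE8:GR* + mock 1 and 3, and to 6, 9 and 9 without *rve8* + DEX 1, 2 and 3. Of the 51 increases, 12 were stepwise in all 12 fits that left out a library, and of the 17 decreases 1. Singled out after these counts were seen, the 12 include AT5G23240 and *GWD1*, *IGMT4*, a methyltransferase of indole glucosinolates (1.31), *BBD1*, a bifunctional nuclease (1.25), *THI1*, which makes the thiazole of vitamin B1 (1.22), and *CPD*, a brassinosteroid enzyme (0.64, with steps of 0.37 and 0.37). The decrease was that of *CYP71A19*, with 9.91, 11.7 and 10.3 CPM in *RVE8:GR* + DEX and 15.7, 17.37 and 20.4 CPM in *rve8* + mock, a log2 fold change of -0.75. Its intermediate groups stood at 9.21 to 11.6 CPM and 9.84 to 12.0 CPM and overlapped *RVE8:GR* + DEX, so that each step alone (-0.80 and -0.70) was about as large as the whole, and the departure was 0.75 (adjusted p-value 0.0195 by the quasi-likelihood test of edgeR). *EXPA15*, an expansin, fell by 0.55 with steps of -0.41 and -0.37.

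Of 37 starch genes, 15 rose, against 5.41% of all genes tested, 1 fell, against 3.6%, and 21 did not pass, with a median log2 fold change of 0.27. The line step alone was called for 10 of the increases and for the decrease, and *GWD1* was the only stepwise member. Breakdown enzymes among the 15 included *PHS2*, a cytosolic glucan phosphorylase, with 261, 268 and 269 CPM against 149, 146 and 155 CPM and no overlap, a log2 fold change of 0.83 (standard error 0.0747). *PWD*, the partner of *GWD1*, rose by 0.74, *SEX4*, a glucan phosphatase, by 0.62, the α-amylase *AMY3* by 0.59, the disproportionating enzymes *DPE1* and *DPE2* by 0.67 and 0.50, and the debranching enzymes *ISA3* and *LDA* by 0.55 and 0.55. Of synthesis genes, *PGM1* rose by 0.47 and *SS4* by 0.32, as did *SBE2.1*, a branching enzyme, by 0.38 and the isoamylase *ISA1* by 0.27, while *GBSS1* (-0.57), *APL1* (0.09) and *APS1* (0.18) did not pass. *BAM9*, of the β-amylase family, fell by 0.80. The count was 11 without TMM factors and 11 to 15 with a library left out.

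Between the intermediate groups, 21 of 37 starch genes were higher in *RVE8:GR* + mock relative to *rve8* + DEX, against 1.81% of all genes tested. Some members had their highest mean in *RVE8:GR* + mock. *SEX4* had 61.6, 58.9 and 52.3 CPM in *RVE8:GR* + mock, above all 39.5 to 44.5 CPM of *RVE8:GR* + DEX. *GPT2*, a glucose phosphate translocator, averaged 84.1 CPM in *RVE8:GR* + mock but 35.6, 27.9 and 32.1 in *RVE8:GR* + DEX, *rve8* + DEX and *rve8* + mock, and its log2 fold change between the ends was 0.15. *APL3* showed 36.5 against 19.4, 15.5 and 17.2 in the same order.

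**Figure D4:**
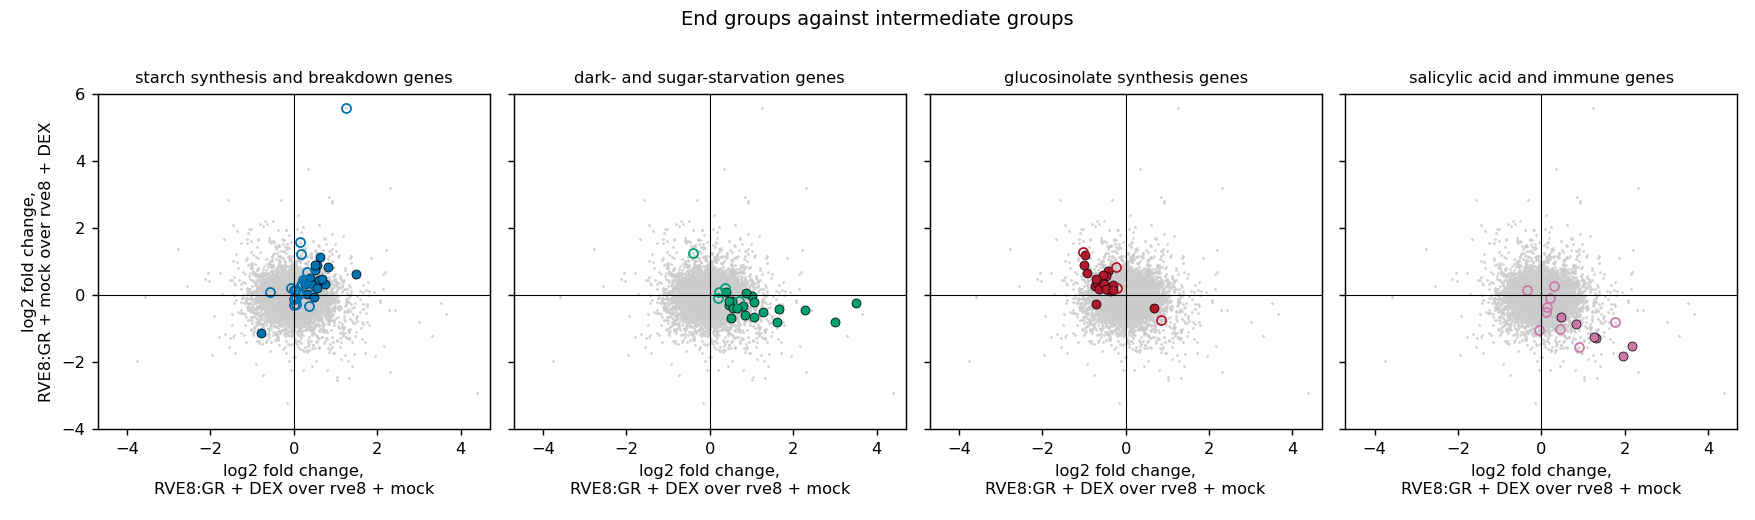
Each panel sets the log2 fold change of *RVE8:GR* + DEX over *rve8* + mock (x axis) against that of *RVE8:GR* + mock over *rve8* + DEX (y axis), which share no library, for all 19961 genes tested (grey) and 1 list (filled, called on the x axis; open, not called). Starch genes lie mostly up and to the right (21 of 37 called higher on the y axis), starvation genes to the right and slightly down, glucosinolate genes left and up (12 of 23 called higher on the y axis) and salicylic acid genes right and down (8 of 15 called lower on the y axis).

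Genes known from darkness and sugar starvation were the list with the largest share of increases, 19 of 24 against 5.41% of all genes tested, with a median log2 fold change of 0.75. The lists were chosen with earlier results of these data known, so their ranking is a description. *SEN1* (AT4G35770), a dark-inducible gene, had 29.4, 35.2 and 33.0 CPM in *RVE8:GR* + DEX and 2.59, 2.00 and 3.91 CPM in *rve8* + mock, without overlap, a log2 fold change of 3.52 (standard error 0.356, adjusted p-value 0.000156 by the quasi-likelihood test of edgeR). *ASN1*, which makes asparagine and is induced by darkness, had 20.5, 34.7 and 24.9 CPM against 4.00, 3.39 and 2.55 CPM, a log2 fold change of 3.01 (standard error 0.353). The means of the intermediate groups lay in between, but *RVE8:GR* + mock overlapped *rve8* + mock in both genes. The libraries were at 3.31 to 9.11 CPM and 5.14 to 7.75 CPM for *SEN1* and 3.52 to 8.77 CPM and 8.38 to 11.7 CPM for *ASN1*, and no step of either was called. *DRM2*, a dormancy-associated gene with 3 long EE sites, had 294, 271 and 291 CPM against 55.1, 51.6 and 67.9 CPM, a log2 fold change of 2.29 with a DEX step of 0.83 and a called departure of 1.09.

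Further members that rose were *DIN10*, of the raffinose synthase family (1.28), *DRM1* (1.62), the sugar transporter *STP1* (1.06), *KMD4*, an F-box gene (1.06), *PRODH1*, which degrades proline (0.65), and the genes of branched-chain amino acid breakdown *BCAT2* (1.67), *MCCA* (1.02) and *IVD* (0.40). *STP1* had 162, 138 and 158 CPM against 66.2, 67.2 and 86.3 CPM, with a DEX step of 0.73 and a line step of 0.06. Of the 19, the DEX step alone was called for 6 and neither step for 13. None of the 19 had a called line step, and over the list the median line step was 0.08 and the median DEX step 0.32. *DIN2* (0.71), *DIN3* (0.21), *DIN11* (-0.41), *MCCB* (0.23) and *TPS10* (0.36) did not pass. The count was 15 to 19 with a library left out and 17 without TMM factors.

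**Figure D5:**
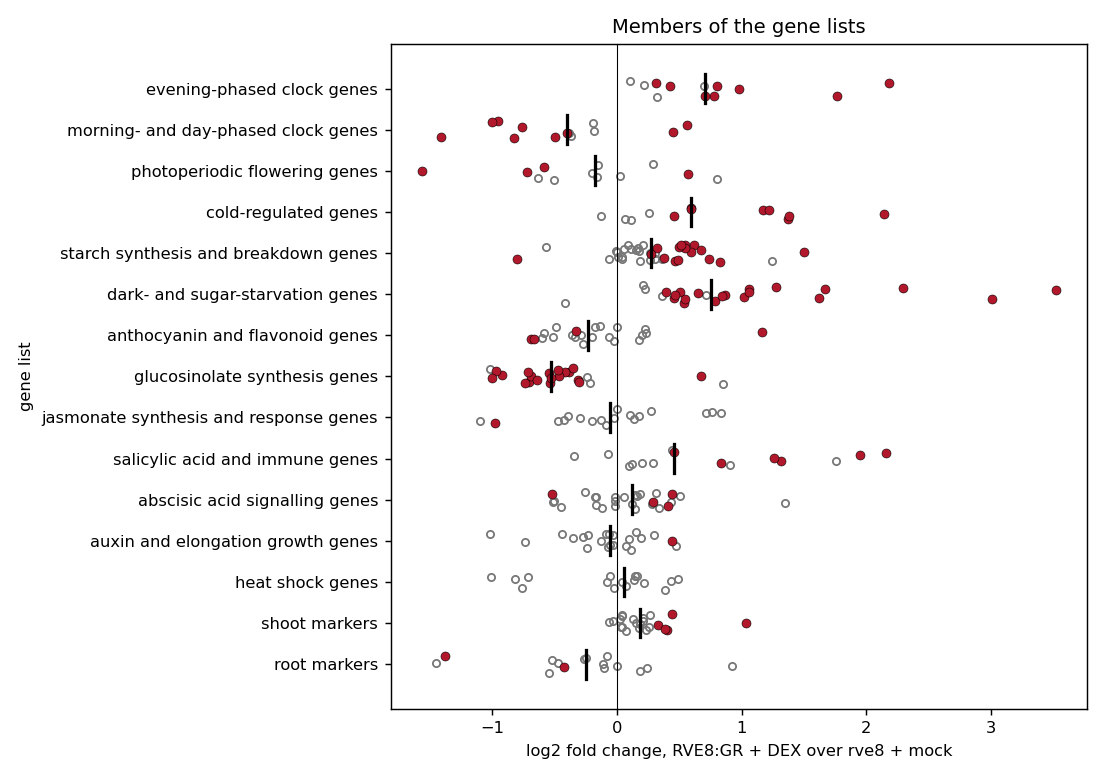
Log2 fold change of *RVE8:GR* + DEX over *rve8* + mock (x axis) for the tested members of 15 gene lists (rows). Filled red points were called, open points were not, and black bars are list medians. The medians run from -0.53 (glucosinolate synthesis) to 0.75 (dark and sugar starvation), and the vertical spread within a row carries no value.

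Of 23 glucosinolate genes, 18 fell, against 3.6% of all genes tested, and 1 rose, with a median log2 fold change of -0.53. *FMO GS-OX1*, which modifies the side chain of aliphatic glucosinolates, had 13.9, 12.9 and 11.9 CPM in *RVE8:GR* + DEX and 27.3, 24.0 and 26.3 CPM in *rve8* + mock, with log2 fold change -1.0 (standard error 0.0956, adjusted p-value 1.87e-07 by the quasi-likelihood test of edgeR). *MYB29*, a regulator of aliphatic glucosinolates, had 17.5, 16.1 and 17.35 CPM against 34.0, 30.0 and 32.4 CPM, a log2 fold change of -0.92 (standard error 0.0813). Neither overlapped. *CYP79F1* and *CYP79F2* of the aliphatic branch fell by 0.97 and 0.64, the chain-elongation gene *BCAT4* by 0.74, *CYP79B2* and *CYP79B3* of the indolic branch by 0.46 and 0.54, and *SUR1*, shared by both branches, by 0.53. *MYB51*, an indolic regulator, was the gene that rose, by 0.68.

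The DEX step alone was called in the same direction for 14 of the 19 called glucosinolate genes, the line step alone for *MAM3* and neither for 4. The median DEX step was -0.47 and the median line step 0.04. *BCAT4* had 75.6, 74.4 and 67.1 CPM in *RVE8:GR* + DEX, 89.6, 84.2 and 85.4 for *rve8* + DEX, 100.01, 109 and 103 in *RVE8:GR* + mock and 129.8, 119 and 113 in *rve8* + mock, so that the mock libraries stood above the DEX libraries in both lines. *MYB29* differed by a called departure of -0.62, with means of 36.4 CPM for *RVE8:GR* + mock and 22.9 CPM for *rve8* + DEX. The number of decreases was 13 to 19 with a library left out.

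Of 15 salicylic acid genes tested, 6 rose, against 5.41% of all genes, all with the DEX step alone called. Between the intermediate groups 8 were lower in *RVE8:GR* + mock, against 3.15% of all genes. *PBS3*, an enzyme of salicylic acid synthesis, had 12.7, 11.6 and 13.3 CPM in *RVE8:GR* + DEX and 2.41, 2.54 and 3.44 CPM in *rve8* + mock, with log2 fold change 2.16 (standard error 0.228), beside a DEX step of 2.26. *PR5*, a pathogenesis-related gene, had 10.6, 14.2 and 12.9 CPM against 2.59, 3.75 and 3.44 CPM, a log2 fold change of 1.95 with a DEX step of 2.1. Neither gene overlapped between the ends, and for both the libraries of *rve8* + DEX overlapped those of *RVE8:GR* + DEX, at 10.5 to 18.9 CPM and 13.3 to 15.3 CPM. The regulators *CBP60G*, *SARD1* and *WRKY70* rose by 1.32, 1.26 and 0.83, and *ICS1*, which starts salicylic acid synthesis, by 0.46. The 6 increases were reduced to 2 without *rve8* + mock 1 and to 3 without *RVE8:GR* + DEX 3. *CBP60G* lost its call in the first of these fits and *SARD1*, *WRKY70* and *ICS1* in both.

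Other lists changed little between the ends although their intermediate groups differed. None of 16 heat shock genes was called by edgeR's quasi-likelihood test, 4 had an unadjusted p-value under 0.05 (3 higher and 1 lower), DESeq2 called 1 higher, and edgeR's exact test called 1 higher and 2 lower. *HSP70* averaged 163 CPM in *RVE8:GR* + DEX and 158 in *rve8* + mock but 327 in *rve8* + DEX, and *HSP90.1* 67.3, 60.9 and 128. Of the 16, 7 were lower in *RVE8:GR* + mock relative to *rve8* + DEX, against 3.15% of all genes. Jasmonate genes showed the reverse, with 6 of 18 higher in *RVE8:GR* + mock, against 1.81% of all genes tested. Between the ends *JAZ5*, a repressor of jasmonate signalling, was the only member called in the main test, while edgeR's exact test called 3 of the 18 higher and 4 lower and DESeq2 1 higher and 1 lower. Without *rve8* + mock 2 the main test called 1 higher and 0 lower, and without *RVE8:GR* + DEX 1 it called 0. It fell by 0.97, a call lost without *RVE8:GR* + DEX 1 or *rve8* + mock 2.

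Of 22 anthocyanin and flavonoid genes, *MYBL2*, a repressor of anthocyanin synthesis, rose and 3 fell, against 5.41% higher and 3.6% lower of all genes tested. *MYBL2* had 99.7, 92.6 and 112 CPM against 42.8, 41.0 and 51.5 CPM, a log2 fold change of 1.17 (standard error 0.0947) with a line step of 0.64. The decreases were those of *4CL3* (-0.66), *MYB111*, a flavonol regulator (-0.69), and *FLS1*, which makes flavonols (-0.32). They numbered 1 without *RVE8:GR* + DEX 3 or *rve8* + mock 2. *4CL3* was called in all 12 fits that left out a library, *MYB111* in 8 and *FLS1* in 4. *DFR* and *TT19* of the anthocyanin branch averaged 44.0 and 17.37 CPM in *RVE8:GR* + mock, 13.2 and 5.17 in *RVE8:GR* + DEX and 19.99 and 6.34 in *rve8* + mock, and neither passed between the ends.

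Abscisic acid signalling had 3 of 27 genes higher and 1 lower, against 5.41% and 3.6% of all genes tested, so the share of decreases was near that of all genes. The number higher was 2 in 8 of the 12 fits that left out a library. *ABI1*, a phosphatase that inhibits the pathway, rose by 0.44 and the kinase genes *SNRK2.2* and *SNRK2.3* by 0.41 and 0.29, while *HAB1*, another such phosphatase, fell by 0.52. *SNRK2.3* was called in 1 of 12 fits with a library left out. The decrease of *HAB1* was lost without *RVE8:GR* + DEX 3 or *rve8* + mock 1 or 2. In the auxin and growth list *PIF4*, a bHLH factor of elongation growth, was the only called gene of 22, against 5.41% of all genes tested, with a log2 fold change of 0.44, and the call was lost without *rve8* + mock 2.

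The 8 largest decreases with at least 5 CPM were those of *COL2* and of 7 genes of no clock or flowering list. *GSTF14*, a glutathione transferase, had 4.68, 5.47 and 5.33 CPM in *RVE8:GR* + DEX and 15.98, 13.6 and 12.9 CPM in *rve8* + mock, with log2 fold change -1.46 (standard error 0.216), and its line step was -1.48. *AO*, the aspartate oxidase that starts NAD synthesis, had 7.43, 9.13 and 9.56 CPM against 19.9, 20.3 and 19.3 CPM, a log2 fold change of -1.19 (standard error 0.106). Both lacked overlap. *AO* did not follow the steps, since *RVE8:GR* + mock (16.3 to 19.3 CPM) and *rve8* + DEX (20.5 to 21.8 CPM) stood near *rve8* + mock, and its departure was -1.15.

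*FRU*, the bHLH regulator of iron uptake in roots, had 6.41, 6.12 and 6.36 CPM against 13.9, 13.7 and 14.1 CPM, a log2 fold change of -1.14 with a DEX step of -1.48. *NRT2.1*, a nitrate transporter, had 15.7, 11.4 and 11.6 CPM against 35.2, 30.1 and 35.4 CPM, a log2 fold change of -1.38. This call (adjusted p-value 0.00953 by the quasi-likelihood test of edgeR) held in 2 of 12 fits that left out a library. *EXT11* (-1.34), annotated as a pseudogene of an extensin, was called in 5 of these fits. *HMT3*, a homocysteine methyltransferase, fell by 1.26, and AT5G42760 by 1.21 with a line step of -0.76.

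Among genes called between the ends with at least 5 CPM, those furthest from the sum of the steps were *PDF2.1*, AT1G07050 and AT1G30280 upward and *BBX16*, *RING1* and AT2G18193 downward. *PDF2.1*, a defensin gene, had 10.1, 12.8 and 12.7 CPM in *RVE8:GR* + DEX, against 2.22 to 4.00 CPM for *RVE8:GR* + mock, 3.35 to 4.50 CPM for *rve8* + DEX and 2.94 to 6.10 CPM for *rve8* + mock. Its departure of 2.1 (standard error 0.329, adjusted p-value 0.00127 by the quasi-likelihood test of edgeR) exceeded its log2 fold change of 1.44, and only *RVE8:GR* + DEX stood apart. AT1G07050 had 33.9, 31.3 and 27.4 CPM against 8.46, 7.56 and 5.04 CPM, a log2 fold change of 2.14 with a departure of 1.56. *BBX16*, of the B-box zinc finger family, had 7.99, 7.27 and 6.99 CPM against 14.0, 14.1 and 14.3 CPM, a log2 fold change of -0.93 with a departure of -1.89, since *RVE8:GR* + mock (15.7 to 18.18 CPM) and *rve8* + DEX (22.1 to 24.7 CPM) were both above *rve8* + mock. *RING1*, a ubiquitin ligase gene, rose by 0.85 between the ends, with steps of 1.01 and 1.38 that were each larger and a departure of -1.54.

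Markers of shoot and root tissue were compared because whole seedlings were sampled. In such bulk samples, fewer cells of a type and less RNA per cell cannot be told apart. Of 22 shoot markers, genes of light harvesting and Rubisco, 5 rose between the ends, against 5.41% of all genes tested, with a median log2 fold change of 0.18. Their summed level was 93775 to 98377 CPM in *RVE8:GR* + DEX and 79026 to 94497 in *rve8* + mock, which overlapped. *RVE8:GR* + mock had 91760 to 94591 CPM, and *rve8* + DEX had 102510 to 116319 CPM, above all libraries of the other groups. A downward departure was called for 5 of the 22, against 0.947% of all genes. The largest increase between the ends was that of *LHCB1.4*, by 1.04, which shares 13.7% of its stretches with other cDNAs. The number that rose was 3 without *rve8* + mock 2 and 9 without *rve8* + mock 3. Of 15 root markers, *NRT2.1* and *PHO1* (-0.42) fell, against 3.6% of all genes tested, and neither was called without *RVE8:GR* + DEX 1 or 2 or *rve8* + mock 2 or 3. Both were called in 2 of the 12 fits that left out a library. The summed level was 1896 to 2164 CPM in *RVE8:GR* + DEX and 2176 to 2263 in *rve8* + mock, without overlap. For the intermediate groups, *RVE8:GR* + mock had 1911 to 2325 CPM and *rve8* + DEX had 1696 to 1954 CPM. The part of tissue composition in the results above was not tested.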

How the data were processed

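Per the labels and the methods of the study, the authors sequenced strand-specific libraries (single-end, 50 bp), aligned them with BWA to representative TAIR10 cDNA models and counted reads on the reverse strand per model. The deposited values are these counts, not normalized, and 33457 empty entries among 26245 models were read as 0. Here edgeR 4.0.16 in R 4.3.3 was fitted to all 12 libraries (4 groups, TMM factors, robust quasi-likelihood, no replicate term) for the 19961 models that reached 1 CPM in 3 or more libraries. A gene was called when its Benjamini-Hochberg adjusted p-value was below 0.01. Simulated data for this comparison (19961 genes) held changed genes with at least 5 CPM on average. Each changed by 1 on the log2 scale between the ends. The fit called 100 of 100 that changed in 2 steps of 0.5 and 99 of 100 that changed in *RVE8:GR* + DEX alone. Of the former, 38 of 100 were recovered as stepwise, and of the latter 82 of 100 had a called departure. Most genes called in the data changed by less, so these shares do not carry over to them. P-values measure the spread between the biological replicates, which are separate samples of about 30 plants.

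Genes were matched to the TAIR10.1 annotation by name (25259) or locus (631), and 23808 had a 1500 bp promoter. The members and gene lists were chosen with earlier results of these data known. Named genes are, among called genes with at least 5 CPM, the 8 largest changes each way, the 6 largest stepwise changes each way and the 3 largest departures each way, together with all clock genes, *RVE8* and up to 6 called members of each other list. Other list members, *KIN1*, *KIN2* and genes named for their stability were picked after their values were seen. Alternatives were other scaling, filters, thresholds, tools (DESeq2 1.42.0, edgeR's exact test), a replicate block and leaving out each library.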

Additional observations from a re-analysis of the deposited data

Results flagged for a closer look

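For the named genes below, the difference between lines (*RVE8:GR* over *rve8*) with DEX differed from that after mock by edgeR's quasi-likelihood test of the interaction. The values are these differences of log2 fold changes, positive where the line difference was higher with DEX, and they equal the departures. Among called evening, cold and starvation genes they were 0.97 for *PRR5*, 1.09 for *DRM2*, 1.4 for AT4G33980 and 1.45 for *COR27*. Other positive values were 0.68 for *ELF4*, 1.5 for AT1G30280, 1.56 for AT1G07050, 1.61 for *KIN1* and 2.1 for *PDF2.1*.

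Among clock and flowering genes negative values were found for *PRR9* (-1.38), *CCA1* (-1.17), *LNK3* (-1.16), *COL2* (-1.13), *CDF1* (-0.81), *COL1* (-0.75), *LNK2* (-0.56) and *LNK1* (-0.55). The other negative values were those of *BBX16* (-1.89), *RING1* (-1.54), AT2G18193 (-1.53), *AO* (-1.15), *BAM9* (-0.80), *HAB1* (-0.76), *MYB29* (-0.62) and *LHCB1.4* (-0.54). Groups of 3 are too small for the test of single outlying samples.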

How the results depend on the processing

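No called gene among those named changed direction under the alternatives. *KIN2*, which was not called (0.06), was -0.04 without *RVE8:GR* + DEX 1 and -0.07 without *rve8* + mock 2. Counts that moved by over 1.5 times are given against the main 1079 higher and 718 lower genes, 362 higher and 629 lower in *RVE8:GR* + mock relative to *rve8* + DEX, 48 upward and 189 downward departures, and 51 and 17 stepwise genes. Without TMM factors 1121 genes were lower and 57 decreases stepwise, and upper-quartile factors gave 32 stepwise decreases. DESeq2 gave 89 and 349 departures and 93 and 57 stepwise genes, edgeR's exact test called 551 genes higher in *RVE8:GR* + mock relative to *rve8* + DEX, and with no filter 27 decreases were stepwise. At an adjusted p-value under 0.05 the counts were 1855 and 1538, 798 and 1155, 132 and 428, and 163 and 127. With a 1.5-fold minimum they were 427 and 192, 144 and 309, and 5 and 3 stepwise.

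Leaving out 1 library gave 605 to 1136 higher and 343 to 893 lower genes, 202 to 409 higher and 366 to 697 lower between the intermediate groups, 29 to 62 upward and 97 to 255 downward departures, and 15 to 113 stepwise increases and 3 to 113 stepwise decreases. Same-numbered *RVE8:GR* + DEX and *rve8* + mock libraries had correlations of -0.0884, 0.0125 and 0.0578 between their deviations. Differently numbered ones had -0.109 to 0.0949. Only these 2 groups were compared in this way, which does not settle whether the numbers pair the samples. With a replicate block, 1147 genes were higher, 850 lower, and 61 and 29 stepwise. Between the end groups alone (6 libraries), 896 were higher and 573 lower. With 3 replicates, small steps were often missed, so a gene outside the stepwise set is not shown to lack either step, and models under 1 CPM were not tested.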

Other observations

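A set of 184 genes did not pass between *RVE8:GR* + DEX and *rve8* + mock although *rve8* + DEX stood apart from both, that is, the DEX step and the line difference with DEX were called in opposite directions. The DEX step was upward in 161 of them and downward in 23. An example of the latter, chosen after its values were seen, is *KIN1*, a cold- and abscisic acid-induced gene, with 61.0, 64.9 and 52.0 CPM in *RVE8:GR* + DEX, 55.7, 63.7 and 75.4 in *rve8* + mock, 70.1, 61.1 and 66.2 in *RVE8:GR* + mock and 16.98, 15.1 and 25.1 in *rve8* + DEX. The last group was below the other 3 without overlap, with a DEX step of -1.76 and a line difference with DEX of 1.63 on the log2 scale, while the ends differed by -0.13. Its relative *KIN2* had a DEX step of -0.66 and 0.06 between the ends, neither of which was called. Of the 991 genes that differed between the intermediate groups, 670 were not called between the ends.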
